A study of Mus musculus with 6 samples.

Results

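A set of 6 lipid genes was followed in mouse oocytes: the stearoyl-CoA desaturases Scd1 and Scd2, the fatty acid carriers Fabp5 and Cd36, and the droplet coat proteins Plin2 and Plin3. They were chosen by symbol, and 6 of 6 were among the 10896 genes of the deposited table. Its gene identifiers for them are 20249 (Scd1), 20250 (Scd2), 16592 (Fabp5), 12491 (Cd36), 11520 (Plin2) and 66905 (Plin3). The oocytes had an intact germinal vesicle, the large nucleus that marks arrest before meiosis resumes. All came from (C57BL x CBA) F1 females, in 3 samples of 50 oocytes per group. The in vitro group had grown in follicles freed with collagenase from the ovaries of donors 10 to 12 days old, pooled from several females. These follicles were cultured on membrane inserts in MEM-alpha with 5% fetal bovine serum, ITS (insulin, transferrin and selenium) and FSH. The in vivo group was released by needle from ovaries of females aged 7 to 11 weeks, into M2 medium with dbcAMP, a cell-permeable cyclic AMP analogue that holds oocytes in arrest. Culture, donor age and collection medium cannot be told apart in any comparison below. Nothing in the labels ties a group's samples to separate animals or cultures, so the p-values measure only the spread between these samples, which may be technical.

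A stearoyl-CoA desaturase inserts a double bond into saturated fatty acids, and its product oleate is a preferred building block of triglycerides and membrane lipids. CD36 is a surface receptor that takes up long-chain fatty acids, and FABP5 is a small soluble protein that carries them inside the cell. Surplus fatty acids are stored as triglycerides in lipid droplets, whose surface is coated by perilipins. PLIN2 stays on droplets and is degraded without them, whereas PLIN3 moves between cytosol and droplets. Oocytes burn fatty acids in their mitochondria during maturation and exchange metabolites with the cumulus cells around them.

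The 250 bases before the start of transcription are shown for Cd36, Plin2 and Plin3 so that the promoter of a fatty acid receptor and those of the 2 coat genes, whose means differed in opposite directions, can be read side by side. They come from RefSeq on build GRCm38.p6, 5′ to 3′ on the gene's own strand, which is the minus strand for all 3. The regions are chr5:17835897-17836146 for Cd36, chr4:86670060-86670309 for Plin2 and chr17:56290512-56290761 for Plin3. Capitals mark matches, on either strand, to CCAAT, to the GC box GGGCGG, or to AGGTCA, the half-site of many nuclear receptors. No sequence is shown for Scd1, Scd2 and Fabp5.
Cd36: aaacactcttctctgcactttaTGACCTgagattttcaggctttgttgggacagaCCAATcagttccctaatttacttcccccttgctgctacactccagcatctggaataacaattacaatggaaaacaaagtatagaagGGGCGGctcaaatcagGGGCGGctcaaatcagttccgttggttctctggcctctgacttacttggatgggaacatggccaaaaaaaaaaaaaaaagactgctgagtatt
Plin2: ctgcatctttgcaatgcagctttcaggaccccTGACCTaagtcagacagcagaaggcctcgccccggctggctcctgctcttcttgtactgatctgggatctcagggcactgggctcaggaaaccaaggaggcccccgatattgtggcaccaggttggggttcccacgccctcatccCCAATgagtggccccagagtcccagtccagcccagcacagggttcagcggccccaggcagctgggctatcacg
Plin3: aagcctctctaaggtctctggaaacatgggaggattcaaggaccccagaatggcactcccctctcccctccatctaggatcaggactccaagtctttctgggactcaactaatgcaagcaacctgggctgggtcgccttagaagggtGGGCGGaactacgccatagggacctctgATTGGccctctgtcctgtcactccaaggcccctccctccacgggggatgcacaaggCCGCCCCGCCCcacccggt
All 3 held a CCAAT match, as did 33.9% of the 32851 mouse promoter windows of that length. It began 195 bases before the start in Cd36, 73 in Plin2 and 75, on the reverse strand, in Plin3. GGGCGG, found in 32.7% of windows, matched at 109 and 93 bases in Cd36, inside 2 copies of a 16-base repeat. It matched in Plin3 at 103, and on the reverse strand at 19 and 14, where the last pair overlap, and had no match in Plin2. AGGTCA, found in 14.0% of windows, matched on the reverse strand at 228 bases in Cd36 and 218 in Plin2. Neither TATAAA (12.4% of windows) nor CACGTG (6.02%) matched in any of the 3. G and C made up 43.2% of the Cd36 window, 61.6% of Plin2 and 60% of Plin3, against a median of 52.4% over all windows. A match is a description of these letters and no evidence of binding.

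The table holds group means of normalised reads, but the means are sums of whole reads scaled by 1 factor per library, so the reads of each library could be recovered for 8586 genes, or 78.8% of the table. All 6 genes were among them. The libraries are called A, B and C within each group, and these letters cannot be matched to the sample numbers of the labels. They held 1109521 to 1672765 reads in recovered genes. The in vitro libraries were not equally near to the in vivo ones. Over recovered genes, on the log2 scale, in vitro A had correlations of 0.929 to 0.949 with the in vivo libraries, in vitro C 0.891 to 0.917 and in vitro B 0.854 to 0.872. Within the in vitro group, A and C were at 0.949, B and C at 0.947 and A and B at 0.919, so A and B lay at opposite ends. The in vivo libraries had correlations of 0.952 to 0.956 with each other. Results are given with and without single libraries where the omission matters.

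All 13 oocyte markers were listed. In the authors' deposited table Gdf9, an oocyte growth factor, averaged 37810 normalised reads in the in vitro group and 43120 in the in vivo group. Of the 13, 3 were called lower in vitro and none higher by the PPEE rule given below. Over all genes that rule called 8.31% lower and 6.75% higher. In the authors' deposited table Nlrp5 was at 8330 in vitro and 24100 in vivo, Bmp15 at 14550 in vitro and 25668 in vivo, and Kit at 1253 in vitro and 2305 in vivo. Of the 10 not called, Mos, Dppa3, Figla and Oosp1 had higher means in vitro and the other 6 lower ones. None of 7 stromal or 5 red cell markers was listed. Granulosa and cumulus markers were present in both groups, with 8 of 13 listed and Amh, Amhr2, Foxl2, Inhbb and Fst not listed. Their summed level was 415 to 525 normalised reads in the in vitro libraries and 278 to 289 in the in vivo libraries. In the authors' deposited table Inha, Inhba and Fshr of this list were called higher in vitro, beside 6.75% of all genes. For theca and steroid-making cells, 2 of 7 markers were listed, with a summed level of 19.9 to 43.2 normalised reads in vitro and 1.13 to 20.4 in vivo. For endothelium 4 of 7 markers were listed, and the 3 recovered ones summed to 78.8 to 115 in vitro and 185 to 244 in vivo. For leukocytes only Cd68 was listed of 8 markers, at 14.1 in vitro and 10.8 in vivo. For adipocytes only Lipe was listed of 5, at 53.7 in vitro and 87.9 in vivo. In bulk RNA, fewer cells of a type and less RNA per cell cannot be told apart. The part of these cell types in the results below was not tested.

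Differences were judged in 3 ways. The authors' deposited table carries a PPEE per gene, read here as the posterior probability of equal expression, and a gene was called below 0.05. PPEE is not a p-value. The recovered reads were tested with limma voom, adjusted by the Benjamini-Hochberg method over all recovered genes, with a threshold of 0.05. Lastly, the libraries of both groups were checked for overlap. Of the 6 genes, 4 were called by PPEE, with Scd1 and Fabp5 higher in vitro and Cd36 and Plin3 lower. Over all 10896 genes the same rule called 15.1%, with 6.75% higher in vitro and 8.31% lower. By limma voom 3 of the 6 were called, namely Scd1, Fabp5 and Cd36, beside 10.4% of recovered genes, 5.45% of them higher in vitro and 4.95% lower, as shares of all recovered genes. The libraries of the 2 groups did not overlap for 5 of the 6, against 34.5% of recovered genes.

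**Figure D1:**
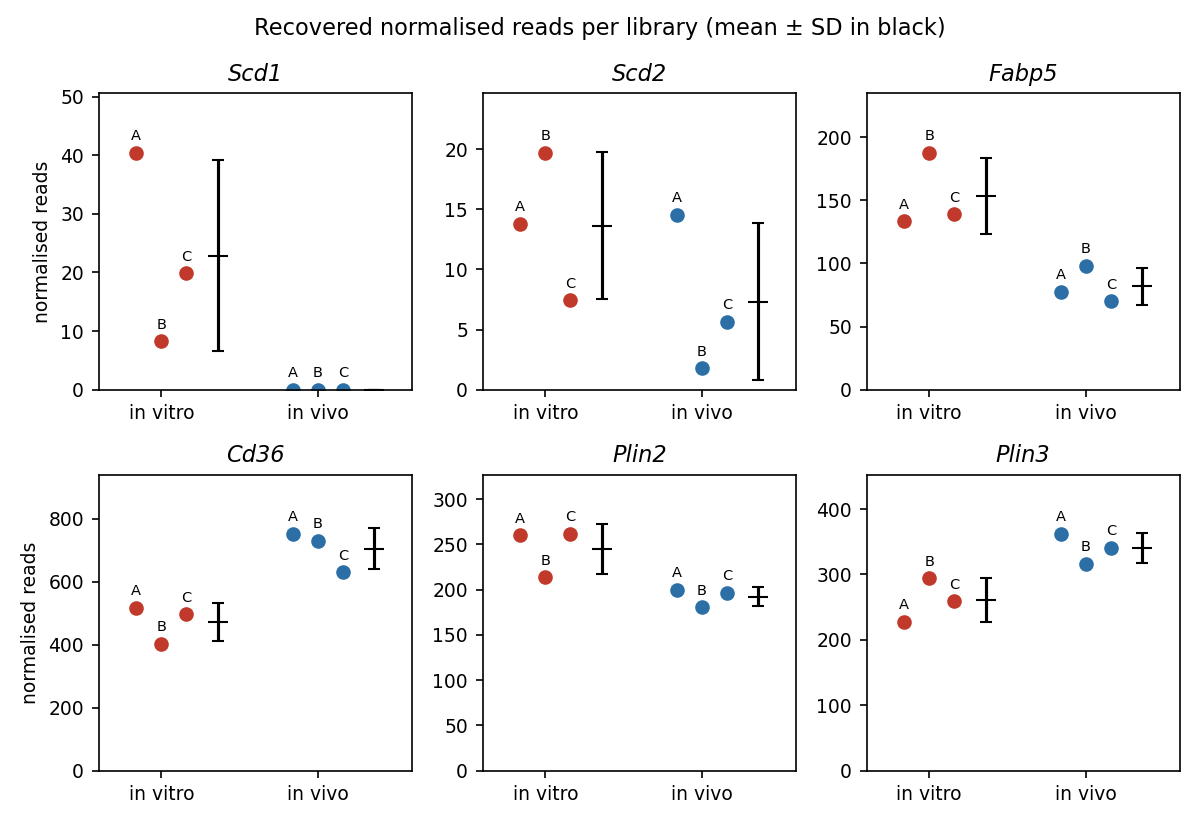
Normalised reads of each gene in every library, on an axis per gene, with the 3 in vitro libraries left of the 3 in vivo libraries. Coloured points are libraries A, B and C, and black bars are the mean ± SD of a group. Scd1 has 0 reads in every in vivo library, and Scd2 is the one gene whose groups overlap.

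Of the desaturases, Scd1 had reads in the in vitro group only, while for Scd2 no difference was called. Scd1, the main desaturase of liver and fat, had 44, 8 and 16 reads in in vitro A, B and C, against 0 reads in each in vivo library. Normalised, these were 40.4, 8.29 and 19.9, a mean of 22.9 ± 16.3 (SD, n = 3), against 0 in vivo. All in vitro libraries were above all in vivo libraries, but they differed among themselves, with library A the highest. Scd1 was the only gene of the table listed at 0 in vivo, and no gene was listed at 0 in vitro. The smallest total of a recovered gene was 33 reads over the 6 libraries, so genes with fewer reads may be missing. Scd1 passed that total only through its in vitro reads, so being the only such gene is no support for the difference. The same limit holds for its calls and its fold below. A total of 0 reads over the in vivo group allows up to 3 reads, or a mean of 0.923 normalised reads, for counting error only. Against that limit the in vitro mean of Scd1 was at least 24.8-fold higher, a bound that leaves out the spread between in vitro libraries. This bound was 15.3-fold without in vitro A, and ran from 15.3-fold to 32.7-fold over all omissions of 1 library. Its PPEE in the authors' deposited table was 0.00589, and the limma voom adjusted p was 0.00562. Leaving out in vivo A ended the limma voom call, with an adjusted p of 0.0564, and the other 5 omissions kept it. The summed granulosa markers were also higher in every in vitro library, though of the 8 listed Nr5a2, Kitl and Gja1 had lower means in vitro. The summed theca markers overlapped between groups, with Hsd3b1 at 28.0 in vitro and 3.34 in vivo but Cyp11a1 at 5.84 in vitro and 9.76 in vivo. The limma voom changes of Kitl, Gja1 and Cyp11a1 turned sign when single libraries were left out. The part of these cells in the Scd1 reads was not tested.

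Scd2, the desaturase known for its high level in brain, had 15, 19 and 6 reads in in vitro A, B and C, against 18, 2 and 5 in in vivo A, B and C. The groups overlapped, with in vivo A among the higher libraries. The normalised means were 13.6 ± 6.13 in vitro and 7.32 ± 6.55 in vivo (SD, n = 3 each). The limma voom log2 change was 1.17, with a standard error of 0.69, a 95% interval of -0.31 to 2.65 and an adjusted p of 0.267. Scd2 was thus not called, and the interval of the fold runs from 0.808 to 6.30. The log2 change moved with single libraries. It was 0.41 (adjusted p 0.742) without in vivo B and 1.93 (adjusted p 0.175) without in vivo A in limma voom. Without in vitro A it was 1.13, with a limma voom adjusted p of 0.290.

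Scd1, Scd2 and Scd3 sit in one cluster of desaturase genes on chromosome 19, in the order Scd3, Scd2, Scd4, Scd1 in the RefSeq annotation. Scd3 was the only other desaturase of the family listed. It had 37, 53 and 43 reads in the in vitro libraries and 65, 53 and 41 in the in vivo libraries, which overlapped. Its normalised means were 47.4 ± 11.7 in vitro and 48.6 ± 3.44 in vivo (SD, n = 3 each), with a limma voom adjusted p of 0.864. The summed level of the 3 desaturases was 83.9 ± 3.89 in vitro and 55.9 ± 9.82 in vivo. Scd1 gave 45.8%, 10.0% and 24.6% of their reads in in vitro A, B and C, and 0 in vivo. Scd3 gave 38.5%, 66.3% and 66.2% in in vitro A, B and C, against 78.3%, 96.4% and 89.1% in in vivo A, B and C. In vivo the reads of the family were thus mostly Scd3, and in vitro library A had more reads from Scd1 than from Scd3. These shares are not scaled by gene length, which is 4844 bases for Scd1 and 3470 for Scd3. Per kilobase, the highest in vitro library of Scd1 was at 8.35 normalised reads, below the lowest of Scd3 at 9.80. The sum varied little between in vitro libraries, while its makeup differed. Of the 50-base windows of Scd1 transcripts, 4.56% also occur in other genes, most often Scd3, and of Scd2 windows 3.97% do, most often Scd1. How reads in such windows were assigned is not given in the sources used here, so small differences within the family are uncertain.

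**Figure D2:**
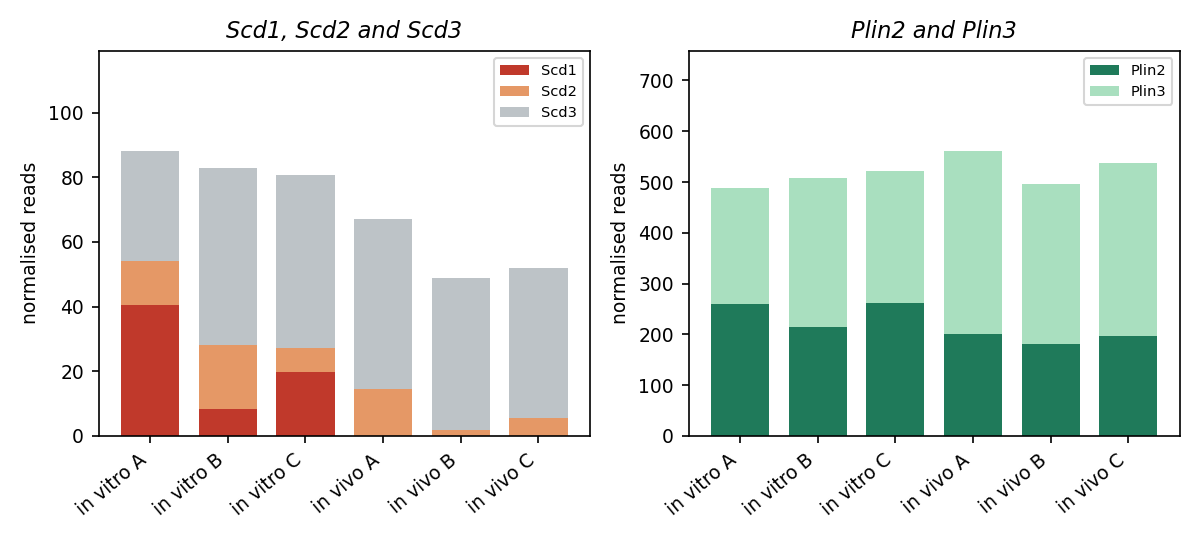
Stacked normalised reads of the desaturases (Scd1, Scd2, Scd3) and of the perilipin pair (Plin2, Plin3), 1 bar per library, in vitro libraries left of in vivo libraries. Scd1 is 10.0% to 45.8% of the desaturase bars in vitro and absent from them in vivo, and Plin2 is a larger share of the pair in every in vitro library. Reads are not scaled by gene length.

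The 2 carriers differed in opposite directions. Fabp5 had 145, 181 and 112 reads in in vitro A, B and C, against 96, 111 and 62 in in vivo A, B and C. Normalised, the in vitro libraries held 133, 188 and 139 and the in vivo libraries 77.6, 98.3 and 70.0, with no overlap. The means were 153 ± 29.9 in vitro and 82.0 ± 14.6 in vivo (SD, n = 3 each), a 1.87-fold higher level in vitro. PPEE in the authors' deposited table was 0.000356. By limma voom the log2 change was 0.89 (standard error 0.23, 95% interval 0.39 to 1.39, adjusted p 0.0334). This call was kept only without in vitro A, where the adjusted p was 0.00706. It was lost without in vitro B (0.0913) or C (0.0949), and without in vivo A (0.121), B (0.0900) or C (0.0862). The log2 change stayed between 0.73 and 1.03 in these limma voom fits. Of Fabp5 windows 5.48% recur in other genes, mostly Gm6166.

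Cd36, the surface receptor, was lower in vitro. It had 563, 389 and 400 reads in in vitro A, B and C, against 930, 824 and 558 in in vivo A, B and C. Normalised, the in vitro libraries held 517, 403 and 496, against 752, 730 and 630 in the in vivo libraries, with no overlap between groups. The means were 472 ± 60.7 in vitro and 704 ± 64.8 in vivo (SD, n = 3 each), 1.49-fold higher in vivo. PPEE in the authors' deposited table was 2.34e-06. By limma voom the log2 change was -0.58 (standard error 0.15, 95% interval -0.91 to -0.26, adjusted p 0.0320). The call was kept without in vitro A (0.00518) and without in vivo C (0.0425). It was lost without in vitro B (0.0822) or C (0.103), and without in vivo A (0.122) or B (0.129). The log2 change lay between -0.66 and -0.47. The endothelial markers Pecam1, Tek and Tie1, 3 of the 4 listed, were also called lower in vitro by PPEE, beside 8.31% of all genes. The other marker, Kdr, was at 16.1 in vitro and 55.3 in vivo, with PPEE 0.9996 in the authors' deposited table. Its limma voom log2 change was -1.83 (adjusted p 0.0150). That call was lost without in vitro C (0.0671), in vivo A (0.0630) or in vivo B (0.0648). The authors' deposited table gave Pecam1 as 561 in vitro and 849 in vivo. Their part in the Cd36 difference was not tested. The recovery is least certain at means of 500 to 750, where Cd36 in vivo lies and where 56.3% of shifted values that should have no solution gave one. No window of Cd36 is shared with another gene.

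The losses of calls in these omissions touched the whole table. Limma voom called 893 of 8586 genes with all libraries, against 2257 without in vitro A, 253 without in vitro B, 51 without in vitro C, 23 without in vivo A, 54 without in vivo B and 560 without in vivo C. None of the 6 genes changed direction in any omission.

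**Figure D3:**
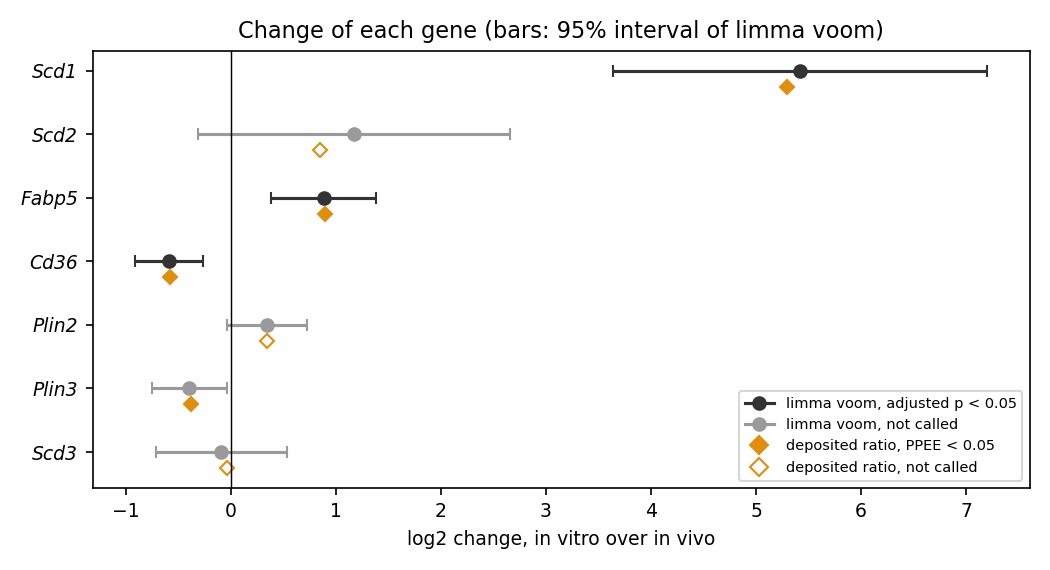
Log2 change, in vitro over in vivo, of each gene and of Scd3. Circles are limma voom with 95% intervals, dark where called and grey where not, and diamonds are the deposited ratio, filled where PPEE is below 0.05. Fabp5 and Cd36 lie on opposite sides of 0, and the intervals of Scd2, Plin2 and Scd3 cross 0.

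The 2 droplet coat genes also pointed in opposite directions, by less. Plin2, the coat protein that follows droplet content in most cells, had 283, 206 and 211 reads in in vitro A, B and C, against 247, 204 and 174 in in vivo A, B and C. Normalised, the in vitro libraries held 260, 214 and 262 and the in vivo libraries 200, 181 and 197, so the groups did not overlap. The means were 245 ± 27.4 in vitro and 192 ± 10.2 in vivo (SD, n = 3 each), a 1.27-fold difference. PPEE in the authors' deposited table was 0.0563, just above the threshold, and the limma voom log2 change was 0.34 (95% interval -0.03 to 0.72, adjusted p 0.202). Neither call was made. Without in vitro A the limma voom change was 0.29, with an adjusted p of 0.257.

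Plin3 had 248, 284 and 209 reads in in vitro A, B and C, against 448, 357 and 302 in in vivo A, B and C. Normalised, the in vitro libraries held 228, 294 and 259 and the in vivo libraries 362, 316 and 341, again with no overlap. The means were 261 ± 33.3 in vitro and 340 ± 23.0 in vivo (SD, n = 3 each), 1.30-fold higher in vivo. PPEE in the authors' deposited table was 0.00718, a call, whereas limma voom gave a log2 change of -0.39 (95% interval -0.75 to -0.03) and an adjusted p of 0.132, no call. Without in vitro A the limma voom change was -0.29 with an adjusted p of 0.210. Plin2 took 53.3%, 42.0% and 50.2% of the reads of the pair in in vitro A, B and C, against 35.5%, 36.4% and 36.6% in in vivo A, B and C. That share was above its in vivo level in all 3 in vitro libraries. The sum of the pair was 506 ± 16.7 in vitro and 532 ± 32.9 in vivo. No other perilipin or fatty acid binding protein of the 13 further family symbols was listed.

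Levels per kilobase of gene length place the genes in a different order in the 2 groups. In vitro, Fabp5 was highest at 158 ± 30.8 normalised reads per kb, followed by Cd36 at 138 ± 17.7, Plin2 at 130 ± 14.5 and Plin3 at 121 ± 15.4. Each of these overlapped with its neighbour in order. In vivo, Cd36 was highest at 205 ± 18.9, then Plin3 at 157 ± 10.7, Plin2 at 102 ± 5.40 and Fabp5 at 84.6 ± 15.1. Cd36 and Plin3 did not overlap in vivo, nor did Plin3 and Plin2, while Plin2 and Fabp5 did. Fabp5 stood above 74.8% of genes in vitro and 62.7% in vivo. The desaturases were far lower, with Scd3 at 13.7 ± 3.36 in vitro and 14.0 ± 0.991 in vivo. Scd1 was at 4.72 ± 3.36 in vitro and 0 in vivo, and Scd2 at 2.50 ± 1.12 in vitro and 1.34 ± 1.20 in vivo (SD, n = 3 each). The in vitro libraries of Scd1 and Scd2 overlapped on this scale.

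**Figure D4:**
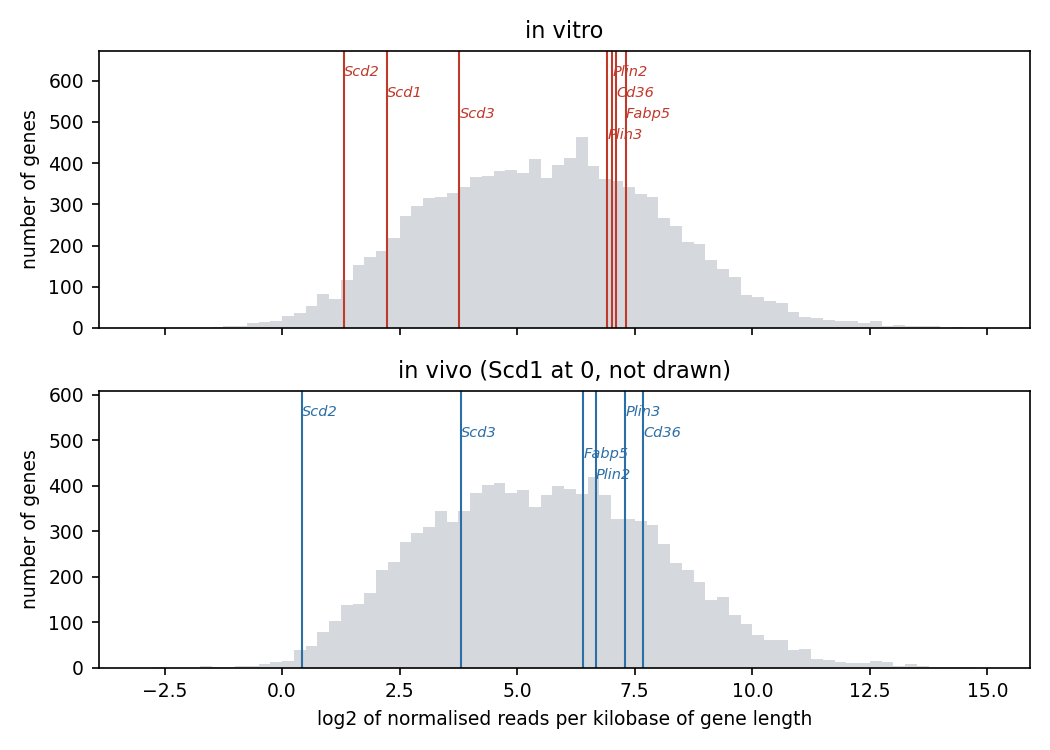
Histograms of the log2 of normalised reads per kilobase over all genes of the table, in vitro above in vivo, with a vertical line at the group mean of each of the 6 genes and Scd3. Scd1 is at 0 in vivo and not drawn there. Fabp5 leads in vitro, at 158 reads per kb before the log, and Cd36 leads in vivo, at 205, with the desaturases lower in both.

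Of the genes that control desaturase transcription, 15 were listed and none was called by PPEE, beside 15.1% of all genes, with a median log2 change of 0.19 against 0.015 over all genes. In the authors' deposited table Srebf1, the lipogenic sterol response factor, had 332 normalised reads in vitro and 306 in vivo (PPEE 0.944). The regulators Srebf2, Scap and Nr1h2 had PPEE values of 0.867, 0.799 and 1 in the authors' deposited table. Nr1h3 was not listed. Insig1, which holds SCAP and the SREBPs in the endoplasmic reticulum, had 401 ± 153 in vitro and 166 ± 16.6 in vivo (SD, n = 3 each). It was higher in every in vitro library, with PPEE 0.128 in the authors' deposited table but a limma voom adjusted p of 0.0272. The call was kept only without in vitro A (4.48e-05), and the other 5 omissions gave adjusted p of up to 0.109.

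Fatty acid synthesis had 1 gene called higher and 1 lower by PPEE of 9 listed, beside 15.1% called in either direction over all genes, with a median log2 change of -0.27. Mcat, the acyl transferase of mitochondrial fatty acid synthesis, had 60.2 normalised reads in vitro and 10.3 in vivo, 5.82-fold higher (limma voom log2 2.42, adjusted p 0.0162). That call was lost without in vitro C (0.0686), in vivo A (0.0874) or in vivo B (0.0636). Fasn, the cytosolic fatty acid synthase, had 33.6 in vitro and 66.2 in vivo, with PPEE 0.00467 in the authors' deposited table and a limma voom adjusted p of 0.0559.

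Of the elongation and other desaturation genes 14 were listed, 2 called higher and 3 lower by PPEE, beside 6.75% higher and 8.31% lower over all genes, with a median log2 change of 0.07. The dehydratases Ptplad1 and Ptplad2, which carry out the third step of elongation, were both lower in vitro. Ptplad1 had 248 normalised reads in vitro and 510 in vivo (limma voom adjusted p 0.00730), with the call lost without in vitro C (0.0502) or in vivo A (0.0551). Ptplad2 had 39.5 in vitro and 76.7 in vivo (limma voom adjusted p 0.0488), and kept its call only without in vitro A, with values up to 0.188 in the other omissions. Elovl7, an elongase of saturated fatty acids, had 363 in vitro and 632 in vivo (limma voom adjusted p 0.0167), with the call lost without in vitro C (0.0872), in vivo A (0.0533) or in vivo B (0.0876). The in vivo means of Ptplad1 and Elovl7 lie, like that of Cd36, at 500 to 750, where the recovery of reads is least certain. Tecr, the reductase of the last elongation step, was higher in vitro, at 759 against 543 in the authors' deposited table (PPEE 0.00240). Elovl1, named after its value was seen, had 906 in vitro and 686 in vivo there (PPEE 7.78e-14). Degs2, chosen for its size once values were known, had a 4.84-fold higher mean in vitro but was called by neither rule (PPEE 0.202 in the authors' deposited table, limma voom adjusted p 0.0760).

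Other uptake genes were not called. Of 10 listed, none passed PPEE, beside 15.1% of all genes, and their median log2 change was 0.11. Of triglyceride synthesis genes 15 were listed and 1 was called by PPEE, beside 15.1% of all genes. This was Lpin1, a phosphatidate phosphatase that makes the diacylglycerol precursor. It had 116 normalised reads in vitro and 211 in vivo (limma voom adjusted p 0.0463). The call was kept only without in vitro A (0.00328), and the other 5 omissions gave values up to 0.159. The median of the list was -0.14. Of lipolysis genes 5 were listed and none was called by PPEE, beside the same 15.1%, with a median of 0.03.

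For droplet assembly and coat, 16 genes were listed, 5 were called lower and none higher by PPEE, beside 8.31% lower and 6.75% higher over all genes. The median log2 change was -0.28, against 0.015 over all genes. Only 6 of the 16 had recovered reads, and Copa, Rab3gap1 and Rab3gap2 were not among them. Of these 6, limma voom called 1 higher in vitro and 0 lower, beside 5.45% higher and 4.95% lower over recovered genes. Copa, a coatomer subunit that acts on droplets, had 638 normalised reads in vitro and 1369 in vivo in the authors' deposited table (PPEE 1.05e-06). Rab3gap2 and Rab3gap1 form the exchange factor of RAB18, and had 531 and 1589 in vitro against 1070 and 2872 in vivo in the authors' deposited table, where Rab3gap1 was named after its value was seen. Faf2, which recruits the segregase VCP to droplets, had 24.0 in vitro and 45.8 in vivo (PPEE 0.0246 in the authors' deposited table, limma voom adjusted p 0.0879). Fitm2, which helps droplets to bud from the endoplasmic reticulum, had 38.5 in vitro and 72.9 in vivo (PPEE 0.0183 in the authors' deposited table, limma voom adjusted p 0.0651). Hsd17b13, a droplet-bound enzyme named after its value was seen, went the other way at 96.8 in vitro and 52.7 in vivo (PPEE 1 in the authors' deposited table, limma voom adjusted p 0.0378, kept only without in vitro A, where it was 0.0143).

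**Figure D5:**
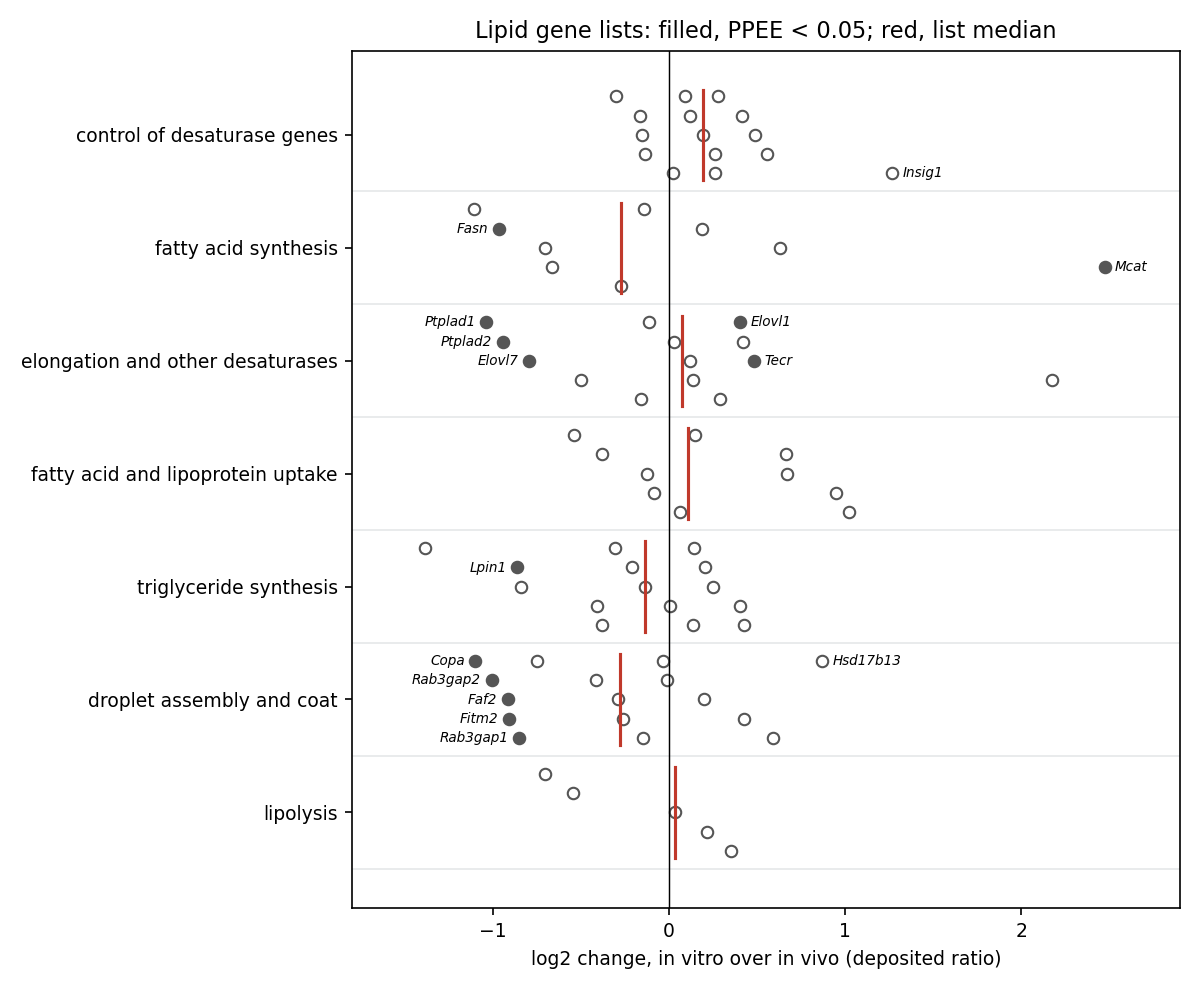
Deposited log2 change, in vitro over in vivo, of every listed gene in 7 lipid lists. Filled points have PPEE below 0.05, red lines are list medians, and open points with a name passed limma voom only. The 5 filled points of the droplet list all lie below 0. Only 6 of its 16 genes could be tested by limma voom, which called 1, higher in vitro.

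For each gene, the 3 genes of most similar pattern across the 6 libraries were taken from 8585 genes with at least 30 reads. Similarity was Pearson's r on log2(normalised reads + 1), which compares shape and not level or size of change. The 6 points share library and group, and r is given as a description. Scd1 was nearest to Tubal3 (0.995), Ccnd3 and Fgr. Scd2 was nearest to Rab7l1 (0.982), Tmem126b and Isoc1. Fabp5 was nearest to Ccdc174 (0.997), Selp and Higd1a, and Cd36 to Wdr11 (0.998), Cntn2 and Frmpd1. Plin2 was nearest to Cdh8 (0.993), Ccbl2 and Sgol1, and Plin3 to Cobl (0.990), Gm21284 and Ano1. None of these was in the lipid lists, which is no result, because the lists hold few of the 8585 genes.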

How the data were processed

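The authors amplified cDNA from 10 ng of RNA by the SMARTer method, per the labels' protocols, and used BWA and build mm9, per the submitters' processing notes. Their table gives a signal per gene, the deposited mean normalised reads of each group, a log2 ratio by the authors (in vivo divided by in vitro), a PPEE and the gene's length. The deposited log2 ratio was recomputed from the means with 0.599 added to each, and its sign was turned to in vitro over in vivo. Spreadsheet dates were restored to 16 symbols, and 10875 identifiers matched RefSeq GRCm38. No column names a single sample.

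The means were solved for whole reads per library up to 750, with 10 significant digits. One solution was found for 95.5% of means in vitro and 95.7% in vivo, against 6.83% and 9.37% of shifted values. The in vitro libraries had size factors of 1.09, 0.965 and 0.806, and the in vivo libraries 1.24, 1.13 and 0.885. Both the recovery and the test were tested on simulated data. The design assumed recovery up to means of 200, and the range was widened after the data were seen. Recovered reads were tested with limma 3.58.1 (voom) in R 4.3.3, with 2-sided tests. The smallest number of reads of a recovered gene over the 6 libraries was 33. The limma voom intervals cover the spread between libraries, and the limit of 3 counts covers counting error only.

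The genes, lists and tests were chosen with earlier results of these data known. Genes to name were the 6 members, called pathway genes up to 4 per list by size, 6 regulators of desaturases, and the 3 nearest patterns of each member. Alternatives were another PPEE threshold, a fold minimum, other pseudocounts, scalings, filters and tools, and leaving out each library. Sequence windows of 50 bases were compared among GENCODE transcripts.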

Additional observations from a re-analysis of the deposited data

How the results depend on the processing

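No paired analysis was possible because the columns are group means and the recovered libraries carry no replicate number. The 6 genes kept their direction under every setting tried. Among uncalled genes named beside them, leaving out 1 library turned the sign of the limma voom log2 change of Scd3 (-0.23 to 0.15), Srebf1 (-0.031 to 0.29) and Nr1h2 (-0.015 to 0.094). It also turned that of the cell type markers Kitl (-0.39 to 0.11), Gja1 (-0.62 to 0.25), Cyp11a1 (-1.19 to 0.30) and Cd68 (-0.24 to 0.76). With a minimum of 1.5-fold, 2 of the 6 genes were called by PPEE in place of 4. With a pseudocount of 5, the log2 change of Scd1 was 2.48, against 5.29 with the deposited constant. Leaving out 1 library in turn gave 0 to 3 called members and 23 to 2257 called genes by limma voom. Restricting limma voom to means up to 200, an alternative added after the data were seen, left 369 calls of 5800 genes. At PPEE below 0.01 the droplet list had 3 calls in place of 5 and triglyceride synthesis had 0 in place of 1. Other library scalings, limma-trend and the limit to libraries within 3-fold of their group mean, the last also added after the data were seen, gave 927 to 1121 calls over all genes against 893. PPEE and limma voom disagreed on genes such as Plin3, Insig1, Kdr and Hsd17b13, and the cause was not tested. List counts by PPEE can thus leave out genes that limma voom called, as for Insig1 among the regulators and Hsd17b13 in the droplet list. Scd1 and Scd2 rest on few reads, and no library can be tied to a labelled sample.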
